A study of Mus musculus with 16 samples.

Results

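The transcripts of 36 genes of mitosis and the spindle were followed in cultured explants of mouse epicardium, the outer cell layer of the heart. The genes were taken by name from a table of read counts, and all 36 were among its 15805 genes and passed the filter on low counts. The treated group held 8 primary explants given blebbistatin, a small molecule that blocks the motor activity of myosin II, and the control group held 8 primary explants without it. All 16 came from C57BL6 mice and were annotated as epicardial cells, and per the labels they grew on a collagen gel. The labels write the dose as 20 but disagree on its unit, mM or mm, so no concentration is given here. The sources used here do not give the age of the mice, the length of treatment, whether explants came from separate hearts, or whether controls received the drug's solvent, so p-values measure only the spread between these explants.

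Mitosis is driven by cyclin-dependent kinase Cdk1 with its A and B cyclins. Chromosomes attach to spindle microtubules through kinetochores, motor proteins of the kinesin family shape the spindle, and the spindle checkpoint holds back anaphase until every chromosome is attached. Many of these genes are transcribed late in the cell cycle and are silent in resting cells, so their summed level in a tissue is widely used as a readout of cycling cells. Myosin II, the drug's target, drives the ring that splits the cell after mitosis. In whole explants a larger number of dividing cells and more transcript per cell cannot be told apart.

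Most mitosis genes had higher values with blebbistatin, by modest amounts, and none passed the test over all genes. The log2 fold change of blebbistatin over control was above 0 for 32 of 36 genes, against 54.1% of all tested genes. The median gene of the set had a log2 fold change of 0.42, against 0.04 for all 15675 tested genes, and 16 of 36 reached at least 0.5, against 13.1% of all genes. By edgeR's quasi-likelihood test with Benjamini-Hochberg adjustment 0 of 36 passed in either direction, against a background of 0.606% of all genes. At an unadjusted p under 0.05 there were 10 genes, all higher with blebbistatin, where the background was 6.21% higher and 12.2% in either direction. The 36 genes went up and down together among explants, so these counts are not of 36 independent observations. The genes were also chosen with earlier results of these data known. DESeq2 called 1 member, Cdca8 (log2 fold change 0.75, adjusted p = 0.0362), against a background of 3.23%, and limma voom called 0 with 11 at an unadjusted p under 0.05. In none of the 36 genes were the groups free of overlap, against 0.242% of all genes. All 36 fold changes were below 2-fold. In simulated counts edgeR called 42 of 100 genes changed 2-fold, so a gene that did not pass may still differ.

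The number at an unadjusted p under 0.05 moved with single explants, from 6 to 15 as each was left out in turn: it was 6 without blebbistatin 3, control 2 or control 3, and 15 without blebbistatin 7. It was 6 without blebbistatin 1 and 8 together, 4 after adjusting for the level of Y-linked genes, since sex is not given, and 2 after adjusting for the share of mitochondrial ribosomal RNA. The median log2 fold change ran from 0.34 to 0.51 over all alternatives.

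**Figure D1:**
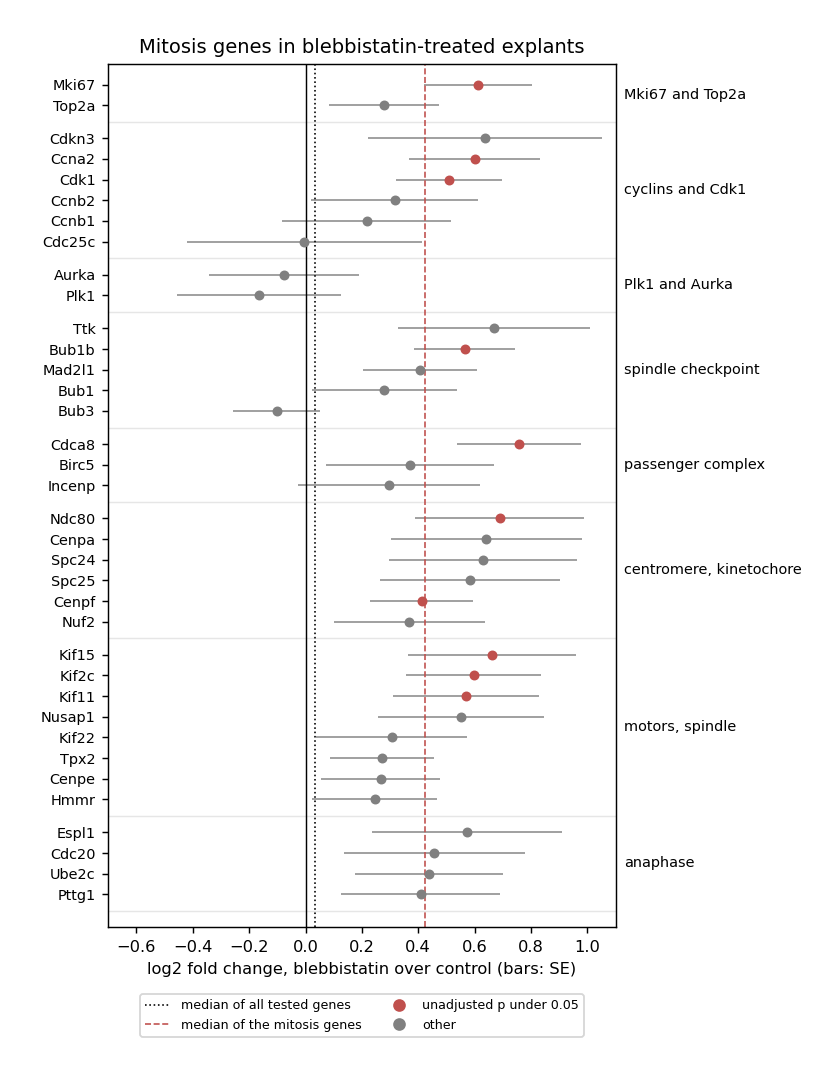
Log2 fold change of each of the 36 mitosis genes, blebbistatin over control, with SE (n = 8 each), grouped by role, with the dotted line at the median of all tested genes (0.04) and the dashed line at the median of the mitosis genes (0.42). Points in red had an unadjusted p under 0.05, and all 10 lie to the right of 0.

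The libraries held 20176386 to 89620195 counts with blebbistatin and 27065611 to 60321622 in controls. Markers of the epicardium were present in every library, among them Wt1, which ran from 44.8 to 78.9 CPM (counts scaled to a fixed library total) in treated explants and from 58.8 to 95.8 CPM in controls, and Upk3b, from 262 to 1027 CPM in treated explants and from 394 to 1268 CPM in controls. The share of mitochondrial ribosomal RNA was 18.9 ± 2.71% in blebbistatin libraries and 14.8 ± 1.53% in control libraries (SD, n = 8 each, 2-sided exact permutation test, p = 0.00373, adjusted over 10 measures 0.0186). Summed markers of cardiomyocytes, 7 of 10 in the table, stood at 653 to 1214 CPM with blebbistatin and 418 to 1024 CPM in controls (exact permutation test, adjusted p = 0.0295), most of it Tnnt2, while Myh6 was at 0 in 4 libraries. Among these 7, Myl7 and Myh6 had a lower median with blebbistatin than in controls and the others a higher one. Summed smooth muscle markers, 6 of 7 in the table, stood at 419 to 894 CPM with blebbistatin and 1048 to 1816 CPM in controls (exact permutation test, adjusted p = 0.00155), most of it Acta2. Of these 6, Pdgfrb had a higher median with blebbistatin (77.8 CPM against 65.6 CPM in controls) and the others a lower one. Macrophage markers, 12 of 12 in the table, ran from 268 to 3830 CPM with blebbistatin and from 309 to 4586 CPM in controls (exact permutation test, adjusted p = 0.838). Endothelial, 5 of 9, fibroblast, 8 of 8, epicardial, 12 of 12, and erythroid markers, 1 of 6, had adjusted p-values from 0.175 to 0.729 by the same exact permutation test. The part of the differences in mitochondrial share and in cardiomyocyte and smooth muscle marker sums in the values of the mitosis genes was not tested beyond the mitochondrial covariate.

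Mki67 encodes the Ki-67 protein, which coats mitotic chromosomes and marks cycling cells (ENSMUSG00000031004, chromosome 7, 135689784 to 135716361). Its level, in CPM scaled by the TMM method as for all members here, had a lowest, median and highest value of 150, 265 and 360 with blebbistatin and 95.0, 182 and 212 in controls. The groups overlapped, but all 8 controls lay below the blebbistatin median. Treated explants averaged 258 ± 78.1 CPM and controls 169 ± 41.2 CPM (SD, n = 8 each), and the log2 fold change was 0.61 (SE 0.19, edgeR adjusted p = 0.159). Top2a, the topoisomerase that untangles sister chromatids (chromosome 11, 98992943 to 99024189), ran from 92.0 through a median of 137 to 161 CPM with blebbistatin and from 62.1 through 101 to 164 CPM in controls. Its highest explant was a control, and its log2 fold change was 0.28 (SE 0.19, edgeR adjusted p = 0.615).

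The 6 genes of the cyclins, Cdk1 and its regulators had a median log2 fold change of 0.41, and 5 of 6 were above 0. Cdk1 itself (ENSMUSG00000019942, chromosome 10, 69335146 to 69352938) ran from 17.4 through a median of 23.9 to 34.9 CPM with blebbistatin and from 11.8 through 16.2 to 25.0 CPM in controls. All 8 treated explants were above the control median, a pattern that 4 of 36 mitosis genes (Cdk1, Bub1b, Ttk and Birc5) and 3.03% of all genes showed. The log2 fold change of Cdk1 was 0.51 (SE 0.19, edgeR adjusted p = 0.251). Ccnb1, for the B-type cyclin that activates Cdk1 at mitotic entry (chromosome 13, 100778650 to 100786570), ran from 12.3 through 27.3 to 31.6 CPM with blebbistatin and from 6.48 through 23.3 to 31.7 CPM in controls. Only control 2 and control 3 were below the lowest treated explant, and the log2 fold change was 0.22 (SE 0.30, edgeR adjusted p = 0.816). It was 0.090 without control 2, 0.081 without control 3 and −0.19 with the mitochondrial covariate. Ccna2, for cyclin A, had a log2 fold change of 0.60 (SE 0.23, edgeR adjusted p = 0.276) and Ccnb2, a second B-type cyclin, one of 0.32. The value for Ccnb2 came with 61.9 CPM in blebbistatin 1, against 29.5 CPM in the next treated explant. Its medians were 24.2 CPM with blebbistatin and 21.1 CPM in controls. The highest value of the role was that of Cdkn3, a phosphatase that acts on cyclin-dependent kinases, at 0.64 (SE 0.41, and 0.37 without blebbistatin 3), and the lowest that of Cdc25c, a phosphatase that activates Cdk1, at −0.01 (SE 0.42). Both were low, at means of 3.60 and 4.07 CPM with blebbistatin and 2.31 and 4.09 CPM in controls, and the sign for Cdc25c turned under 10 of 28 alternatives.

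Plk1 and Aurka, the mitotic kinases that mature the centrosomes and build the spindle, were the only role with both genes below 0. Plk1 (ENSMUSG00000030867, chromosome 7, 122159439 to 122169873) ran from 10.8 through a median of 19.6 to 34.1 CPM with blebbistatin and from 11.7 through 19.8 to 45.3 CPM in controls. The medians nearly coincided, and control 1 and control 7, at 45.3 and 41.2 CPM, were above every treated explant. Its log2 fold change was −0.16 (SE 0.29, edgeR adjusted p = 0.859) and over the alternatives ran from −0.60 with the mitochondrial covariate to 0.013 without control 1. Aurka had −0.08 (SE 0.27), and from −0.19 without blebbistatin 3 to 0.089 without control 1 as explants were left out. Whether these kinases differ from the other roles was not tested, and the roles were set with earlier results of these data known.

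**Figure D2:**
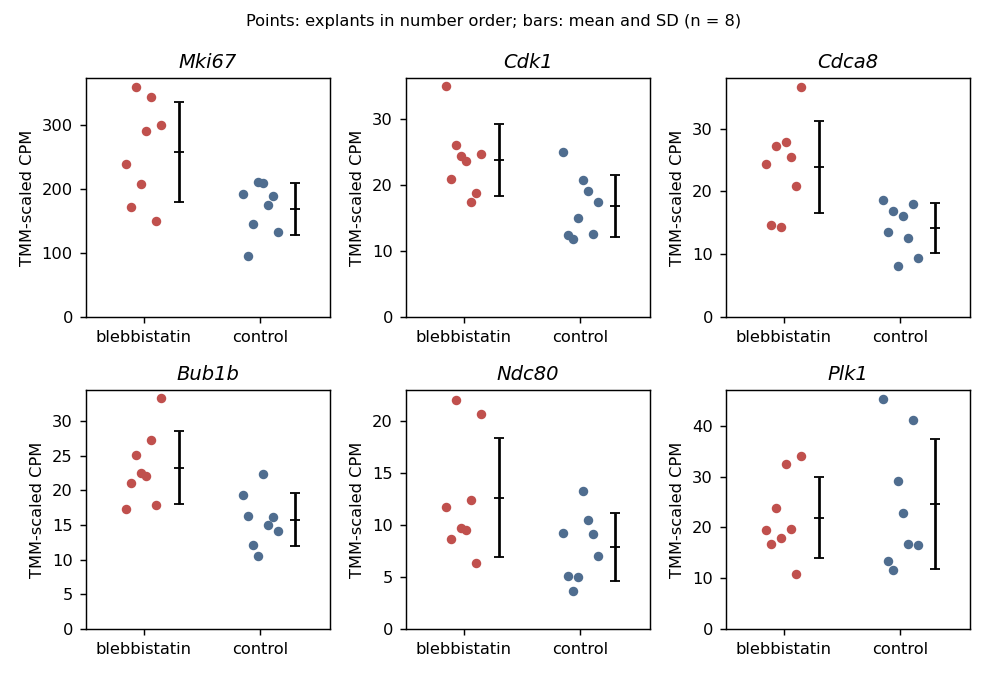
TMM-scaled CPM of 6 mitosis genes in each explant, blebbistatin left of control, with mean and SD (n = 8 each). All 8 blebbistatin explants of Cdk1 and Bub1b lie above the control median, whereas the highest Plk1 values, 45.3 and 41.2 CPM, are those of controls.

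Of the 5 spindle checkpoint genes 4 were above 0, with a median of 0.41. Bub1b, for the BubR1 protein that restrains the anaphase-promoting complex (ENSMUSG00000040084, chromosome 2, 118598211 to 118641591), ran from 17.2 through 22.3 to 33.3 CPM with blebbistatin and from 10.5 through 15.6 to 22.4 CPM in controls. All treated explants were above the control median, and 7 of 8 controls below the blebbistatin median. The log2 fold change was 0.56 (SE 0.18, edgeR adjusted p = 0.171). Ttk, the checkpoint kinase Mps1, had the largest value of the role at 0.67 (SE 0.34, edgeR adjusted p = 0.446). Mad2l1, which binds Cdc20 while chromosomes are unattached, had 0.41 and the kinase Bub1 0.28. The value for Mad2l1 came with 69.7 CPM in blebbistatin 3, against 41.2 CPM in the next treated explant. Its medians were 33.9 CPM with blebbistatin and 29.3 CPM in controls. Bub3, a scaffold that brings Bub1 to kinetochores, was the member with the smallest spread between explants, an SD of 0.31 within groups on the log2 CPM scale, and had a log2 fold change of −0.10 (SE 0.15).

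The chromosomal passenger complex corrects faulty attachments, and all 3 of its genes here were above 0. Cdca8, for borealin (ENSMUSG00000028873, chromosome 4, 124918465 to 124939311), had the largest fold change and the smallest p of all 36 genes. It ran from 14.3 through 24.9 to 36.6 CPM with blebbistatin and from 8.16 through 14.8 to 18.7 CPM in controls. All 8 controls were below the blebbistatin median, while blebbistatin 2 and 4, at 14.7 and 14.3 CPM, were below the control median. Its log2 fold change was 0.76 (SE 0.22, edgeR adjusted p = 0.124, and 0.0362 to 0.485 over all alternatives). Birc5, for survivin, had 0.37 and Incenp, the scaffold of the complex, 0.30. Birc5 stood at 28.1 CPM in control 1, against 13.6 CPM in the next control. Incenp stood at 40.3 CPM in control 1, above every treated explant, and its value was 0.61 without control 1, 0.18 without control 3 and −0.040 with the mitochondrial covariate.

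All 6 genes of the centromere and kinetochore were above 0, from 0.37 for Nuf2 to 0.69 for Ndc80, with a median of 0.61. Ndc80, for the subunit of the Ndc80 complex that grips microtubules (ENSMUSG00000024056, chromosome 17, 71496100 to 71526857), ran from 6.33 through 10.7 to 22.0 CPM with blebbistatin and from 3.60 through 8.05 to 13.3 CPM in controls. Blebbistatin 3 and 8, at 22.0 and 20.7 CPM, stood above the rest, and the groups overlapped. Its log2 fold change was 0.69 (SE 0.30, edgeR adjusted p = 0.354). The other subunits of the complex, Nuf2, Spc24 and Spc25, had 0.37, 0.63 and 0.58, so that its 4 subunits lay between 0.37 and 0.69. Cenpa, the histone variant that marks centromeres, had 0.64 and Cenpf, a large protein of the outer kinetochore, 0.41. In 5 of 6 of these genes at least 7 of 8 treated explants were above the control median, against 12 of 36 over all roles and 12% of all tested genes.

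All 8 genes of spindle motors and spindle proteins were above 0 too, from 0.25 for Hmmr, a protein of spindle poles, to 0.66 for Kif15, with a median of 0.43. Kif2c, a kinesin that takes microtubules apart (ENSMUSG00000028678, chromosome 4, 117159639 to 117182639), ran from 5.36 through 11.5 to 16.7 CPM with blebbistatin and from 4.48 through 7.69 to 10.2 CPM in controls. Blebbistatin 2 and 7 were below the control median and the other treated explants above every control. Its log2 fold change was 0.60 (SE 0.24, edgeR adjusted p = 0.296). Kif11, the motor that pushes spindle poles apart, had 0.57 (SE 0.26), and Kif15, which can share that task, 0.66 (SE 0.30, edgeR adjusted p = 0.374). Nusap1, which bundles spindle microtubules, had 0.55, the chromosome-bound kinesin Kif22 0.31, the spindle assembly factor Tpx2 0.27 and the kinetochore motor Cenpe 0.27.

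The 4 genes of anaphase were above 0, from 0.41 to 0.57, with 0 of 4 at an unadjusted p under 0.05. Espl1, for separase, the protease that parts sister chromatids (ENSMUSG00000058290, chromosome 15, 102296266 to 102324357), ran from 5.14 through 7.21 to 22.2 CPM with blebbistatin and from 3.89 through 7.29 to 11.7 CPM in controls. The medians were nearly equal, and its log2 fold change of 0.57 (SE 0.34, edgeR adjusted p = 0.526) came with 22.2, 16.1 and 13.1 CPM in blebbistatin 8, 3 and 1. Without blebbistatin 8 it was 0.31, and without blebbistatin 1 and 8 together 0.17. Cdc20, which switches on the anaphase-promoting complex, had 0.46, Ube2c, a ubiquitin-conjugating enzyme of that complex, 0.44 and Pttg1, the securin that holds separase inactive, 0.41, which was 0.20 without blebbistatin 8.

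Per length of exon, Mki67 had the highest level of the set, 25.6 TMM-scaled CPM per kilobase with blebbistatin and 16.8 in controls. Next with blebbistatin came Ube2c at 18.6, Ccnb2 at 17.5 and Top2a at 14.6 CPM per kilobase, against 13.8, 14.0 and 12.0 in controls. The lowest with blebbistatin was Cdc25c, at 0.827 CPM per kilobase, and 0.831 in controls. With no stated strand setting, overlaps with genes on the other strand may raise or lower a count, and such overlaps touched 8 mitosis genes. Their effect on the counts was not tested. The overlaps covered 22.8% of the exonic length of Ube2c (with Tnnc2), 12.7% of Cdc25c (with Gm3550), 12.5% of Ccna2 (with Exosc9), 7.09% of Plk1 (with Gm44985) and 4.48% of Cdca8 (with 9930104L06Rik). In Nusap1, Cdc20 and Kif22 they covered 1.96% to 4.24%.

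Explants of one group varied widely, and the mitosis genes went up and down together among them. The summed level of the 36 genes ran from 788 to 1553 CPM with blebbistatin (1202 ± 280, SD) and from 543 to 1134 CPM in controls (907 ± 230, SD). Blebbistatin 3 had 35 of 36 genes above their median over the 16 explants, blebbistatin 5 had 32, blebbistatin 8 had 31 and blebbistatin 6 had 30. Blebbistatin 7 had 4 and blebbistatin 2 had 5. Of the controls, control 5 had 30 and control 1 had 23, while control 2 had 2, control 8 had 4 and control 3 had 5. Each group thus held explants with most genes above and explants with most genes below these medians, but not by like amounts. The median deviation in log2 CPM ran from −0.44 to 0.62 with blebbistatin and from −0.92 to 0.14 in controls. Control 2 had the lowest value of all 16 explants for 18 genes and control 3 for 10, and blebbistatin 3 the highest for 12.

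**Figure D3:**
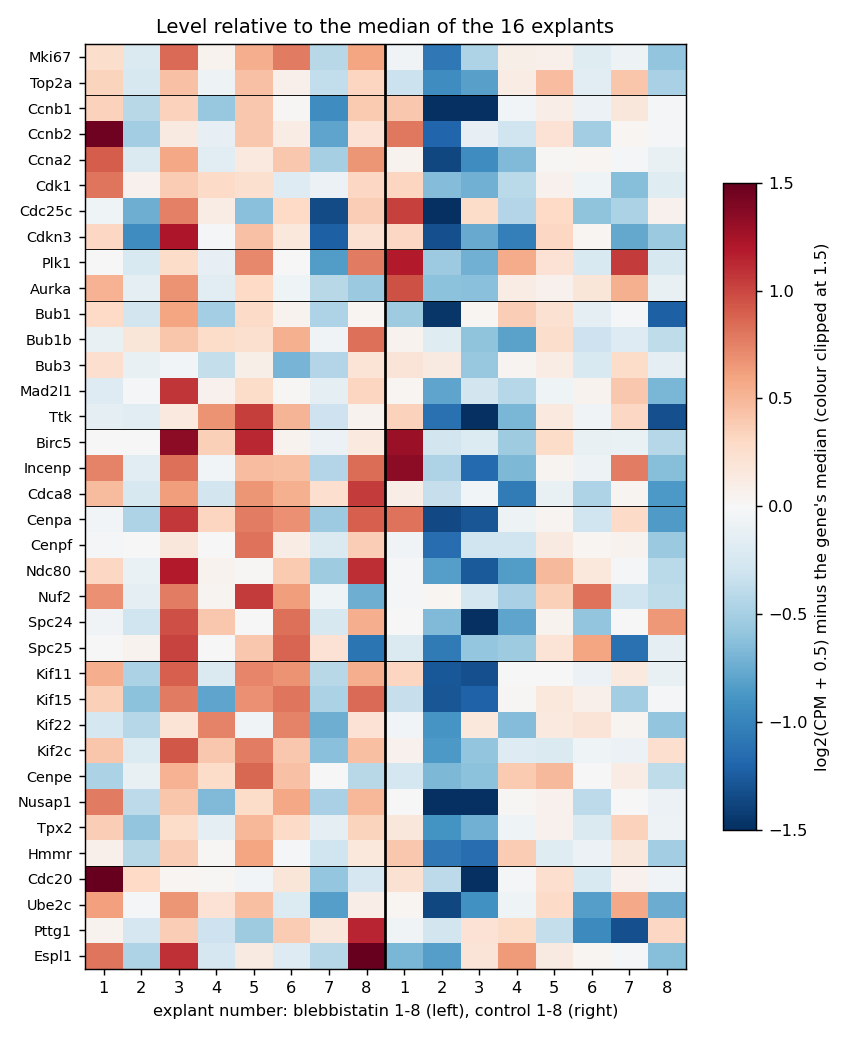
Level of each of the 36 mitosis genes (rows, grouped by role) in each explant (columns, blebbistatin left of the black line, control right), as log2(CPM + 0.5) minus the gene's median over the 16 explants. Columns tend to keep one colour: blebbistatin 3 is high in 35 of 36 genes, and control 2 is high in 2.

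With each group's mean taken away, the median Pearson correlation over the 630 pairs of mitosis genes was 0.48 across the 16 explants, and 93.3% of pairs were positive. Over all pairs of tested genes the median was 0.00. Points share library, depth and scaling, so these values are descriptions. The median was 0.52 within the blebbistatin explants alone, 0.53 within the controls alone and 0.45 without control 2 and control 3, the farthest from the middle. Cenpa and Mki67 went most closely with the rest, at median correlations of 0.69 and 0.67 with the other 35 genes. Pttg1 stood alone at −0.07, and Spc25, Nuf2 and Cdca8 were next lowest at 0.23, 0.25 and 0.31. Within groups the median SD of a mitosis gene was 0.59 on the log2 CPM scale, against 0.45 for all genes in the same range of levels. Cdca8 and Bub1b, the genes of smallest p besides Mki67, had SDs of 0.45 and 0.33.

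Of 49 genes of DNA replication and the step from G1 to S phase tested from a list of 50, 40 had a log2 fold change above 0, against 54.1% of all genes, with a median of 0.28. By edgeR 0 passed in either direction. At an unadjusted p under 0.05 there were 7 higher and 1 lower, 16.3% of the list against 12.2% of all genes. Of all genes 6.21% were higher at that p. Tk1, for thymidine kinase, had 0.68 (SE 0.23, edgeR adjusted p = 0.199) and Prim2, for a primase subunit, 0.47 (SE 0.17, edgeR adjusted p = 0.251). In 15 of 16 explants the replication genes lay, by their median deviation, on the same side of 0 as the mitosis genes. The exception was control 6, at 0.04 for replication and −0.09 for mitosis.

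Of 92 other mitosis genes tested from a list of 93, 68 were above 0, 73.9% against 54.1% of all genes, with a median of 0.20. By edgeR 0 passed in either direction. At an unadjusted p under 0.05, 6.21% of all genes were higher and 12.2% lay in either direction. In this list there were 11 higher and 0 lower, a share of 12.0%. The smallest p was that of Cenpl, for a subunit of the inner kinetochore, with 12.5 ± 7.76 CPM with blebbistatin and 5.36 ± 1.99 CPM in controls (log2 fold change 1.22, SE 0.31, edgeR adjusted p = 0.0708). Cenpp, for another subunit there, had 1.33 (SE 0.46, edgeR adjusted p = 0.21).

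A list of 17 regulators of these promoters held the genes for the DREAM and MuvB complexes, Foxm1, B-Myb, the related Mybl1 and NF-Y. Of these, 5 had a log2 fold change above 0 (29.4%, against 54.1% of all genes), with a median of −0.07. By edgeR 0 passed, against 0.606% of all genes. At an unadjusted p under 0.05, 938 of all 15675 tested genes were lower and 12.2% lay in either direction. In this list there were 2, both lower, a share of 11.8%. These were Tfdp2, a partner of E2F factors (−0.43, SE 0.16, edgeR adjusted p = 0.251), and Mybl1, a Myb factor (−0.57, SE 0.25, edgeR adjusted p = 0.35). Foxm1, an activator of mitotic genes, had 0.11 (SE 0.20) and Mybl2, for B-Myb, 0.00 (SE 0.33). The highest of the 17 were Lin9 at 0.46 (SE 0.29) and Lin52 at 0.44 (SE 0.32), both for subunits of the MuvB core. Of 7 inhibitors of cyclin-dependent kinases 2 were above 0 (28.6%, against 54.1% of all genes), and 0 passed by edgeR. At an unadjusted p under 0.05 there was 1, a share of 14.3% against 12.2% of all genes. This was Cdkn2b (log2 fold change −0.65, SE 0.26, edgeR adjusted p = 0.286). Cdkn1c, another inhibitor, had 0.34 (SE 0.16, edgeR adjusted p = 0.42). Of 6 cyclins and kinases of G1 2 were above 0 (33.3%, against 54.1% of all genes). By edgeR 0 passed, and 0 had an unadjusted p under 0.05, against 12.2% of all genes. The 2 above 0 were Ccnd1 (0.66, SE 0.38, edgeR adjusted p = 0.523) and Ccnd3 (0.17, SE 0.17, edgeR adjusted p = 0.739).

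**Figure D4:**
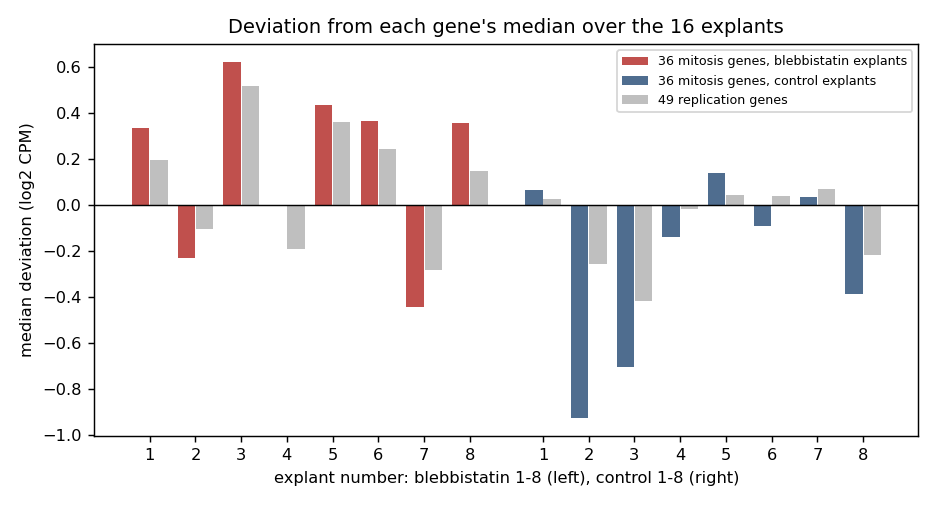
Median deviation, in log2 CPM, of the 36 mitosis genes (coloured bars) and of 49 replication genes (grey bars) from each gene's median over the 16 explants, blebbistatin left of control. Blebbistatin 3 has the highest mitosis bar, 0.62, and control 2 the lowest, −0.92.

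The promoters of these genes were read for the motifs through which late cell-cycle genes are known to be switched. The genes were chosen by name as mitosis genes, so a high share of matches is not an independent result. Whether the motifs bear on the shared variation among explants was not tested. The cell cycle homology region (CHR), with the core TTTGAA, is bound by the MuvB core of the DREAM complex, and the NF-Y box has the core CCAAT. Windows from 250 bases before to 50 after the start came from RefSeq (GRCm38.p6) for 31 of 36 genes matched by symbol, and both strands were searched. Where a gene had several listed starts, only the first was used. TTTGAA was found in 23 of 31, against 17.9% of all 32851 promoter windows, and CCAAT in 23 of 31, against 37.4%. Both were found in 20 of 31, against 6.95%. A TTTGAA within 50 bases of the start was found in 20 of 31, against 4.94%, and at least 2 CCAAT boxes in 18 of 31, against 11.7%. The 20 genes with both had a median log2 fold change of 0.48 and the other 11 one of 0.41. Plk1, Aurka and Bub3, with log2 fold changes below 0, had both as well. A match is a description of the letters and not a measured binding site.

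Promoters of 5 genes are shown from 190 bases before to 30 after the start, because they cover the marker Mki67, its partner Top2a, the Cdk1 and cyclin B pair and the gene of smallest p. Capitals mark TTTGAA and CCAAT on either strand (TTCAAA and ATTGG on the other). Mki67 is at chr7:135716350-135716569, minus strand, with TTTGAA at −116 and −98 and CCAAT boxes at −188, −166 and −141, all counted from the start to the first base of the match. Top2a is at chr11:99024160-99024379, minus strand, with TTTGAA at −179 and −23. Cdk1 is at chr10:69352883-69353102, minus strand, with TTTGAA at −71 and −15 and boxes at −80 and −48. Ccnb1 is at chr13:100786457-100786676, minus strand, with boxes at −99 and −67. Cdca8 is at chr4:124936888-124937107, minus strand, and is the only one of the 31 where both motifs share a base, with TTTGAA at 14 and a box at 19. This RefSeq window lies inside the GENCODE span of Cdca8, 124918465 to 124939311.
Mki67: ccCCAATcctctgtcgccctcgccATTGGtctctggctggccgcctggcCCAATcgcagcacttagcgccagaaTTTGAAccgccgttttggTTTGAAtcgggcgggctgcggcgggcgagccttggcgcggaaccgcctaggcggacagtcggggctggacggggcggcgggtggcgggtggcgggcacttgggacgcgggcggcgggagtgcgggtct
Top2a: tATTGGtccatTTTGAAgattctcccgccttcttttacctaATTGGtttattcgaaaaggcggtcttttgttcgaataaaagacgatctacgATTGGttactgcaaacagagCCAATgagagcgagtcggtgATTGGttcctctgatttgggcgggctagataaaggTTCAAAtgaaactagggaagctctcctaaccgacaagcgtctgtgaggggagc
Cdk1: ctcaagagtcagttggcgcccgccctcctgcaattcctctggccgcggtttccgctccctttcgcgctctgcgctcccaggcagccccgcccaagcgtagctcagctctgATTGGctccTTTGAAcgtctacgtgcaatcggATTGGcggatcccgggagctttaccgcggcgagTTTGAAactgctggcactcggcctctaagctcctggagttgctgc
Ccnb1: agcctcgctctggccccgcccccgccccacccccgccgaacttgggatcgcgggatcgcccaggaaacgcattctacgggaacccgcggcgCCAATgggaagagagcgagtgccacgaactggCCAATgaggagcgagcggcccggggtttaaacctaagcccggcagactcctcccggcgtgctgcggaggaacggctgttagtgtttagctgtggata
Cdca8: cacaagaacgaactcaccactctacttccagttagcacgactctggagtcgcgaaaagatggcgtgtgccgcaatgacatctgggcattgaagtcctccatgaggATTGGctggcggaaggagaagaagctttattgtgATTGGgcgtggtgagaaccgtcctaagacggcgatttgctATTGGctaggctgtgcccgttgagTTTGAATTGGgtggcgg

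**Figure D5:**
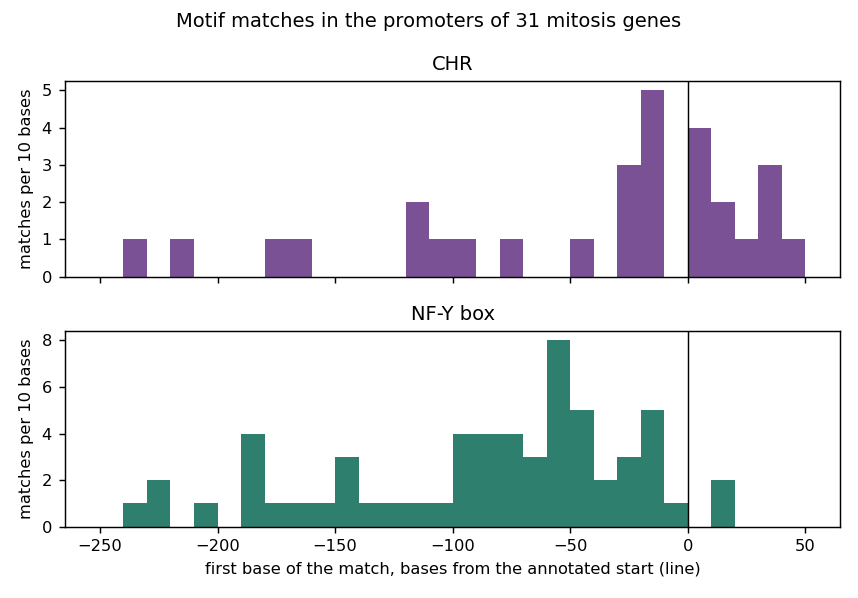
Number of CHR matches (top) and NF-Y box matches (bottom) per 10 bases along the promoters of 31 mitosis genes, by distance of the first base of the match from the annotated start. CHR matches gather within 50 bases of the start, where 20 of 31 genes have one, and NF-Y boxes lie mostly before it.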

How the data were processed

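The authors deposited raw read counts per gene, a column per explant. The submitters' processing notes name TopHat2 2.1.0 and Bowtie2 2.2.6.0 (aligners), SAMtools 1.3, HTSeq 0.6.1p1, edgeR and the mouse build mm10 (GRCm38). What each step did, the annotation release and the strand setting are not given there. Each of the 15805 genes exceeded 1 CPM in at least 4 libraries, so the table had been filtered before deposit. Per the labels' protocols, an Ovation kit amplified the RNA and a Nextera XT kit was used for the libraries.

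Counts were filtered with filterByExpr, leaving 15675 genes, scaled by TMM and tested with edgeR 4.0.16 (R 4.3.3, quasi-likelihood, robust, group only), adjusted over all tested genes by Benjamini-Hochberg at 0.05. SE is the size of the log2 fold change divided by the square root of F. DESeq2 1.42.0 and limma 3.58.1 were alternatives. The scripts were tested on simulated data first. Log2 CPM used a prior count of 2, and marker sums used CPM of total counts. Gene positions and exon lengths, merged over all transcripts, are those of GENCODE M21 (GRCm38). Genes named are all members, with full values for Mki67, Top2a, Ccnb1, Cdk1 and the member of smallest p in each role, and the 2 genes of smallest p in each other list, besides Foxm1, Mybl2, Lin9 and Lin52, chosen after their values were seen. Members, roles and lists were chosen with earlier results of these data known.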

Additional observations from a re-analysis of the deposited data

Results flagged for a closer look

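In 5 of 72 sets of 8 values (36 genes in 2 groups) 1 explant stood far from the others by Dixon's test, each time as the highest. For independent, normally distributed values this is met in about 1 of 20 sets. That rate need not hold here, as the test used CPM values and the genes varied together. Ccnb2 stood at 61.9 CPM in blebbistatin 1, where the next highest treated explant had 29.5 CPM. Cdc20 stood at 22.3 CPM in the same explant, against 8.93 CPM in the next. Mad2l1 had 69.7 CPM in blebbistatin 3, against 41.2 CPM in the next treated explant. Pttg1 had 25.6 CPM in blebbistatin 8, against 14.8 CPM in the next. Among controls, Birc5 had 28.1 CPM in control 1, against 13.6 CPM in the next.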

How the results depend on the processing

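Over 28 alternatives, 16 of them leaving out 1 explant in turn, the median log2 fold change of the mitosis genes stayed between 0.34 and 0.51. As explants were left out it ran from 0.38 to 0.51, with 32 to 35 genes above 0. The number above 0 was lowest, at 28, with the mitochondrial covariate, which was chosen after seeing the data. The number called was 0 in every alternative except DESeq2, where it was 1 (Cdca8). Over the whole table edgeR made 95 calls, DESeq2 422, and edgeR 177 with the replicate block, 261 adjusted for macrophage markers, 21 adjusted for Y-linked genes and 1 adjusted for mitochondrial ribosomal RNA. Leaving out 1 explant gave 44 to 206 calls: blebbistatin 5 gave 180, blebbistatin 6 gave 49, blebbistatin 8 gave 62, control 1 gave 60, control 2 gave 58, control 4 gave 52, control 6 gave 206, control 7 gave 44 and control 8 gave 54. The cause was not tested.

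The labels do not say that a replicate number marks a shared heart, batch or day. Deviations of same-numbered explants had correlations of 0.0039 to 0.28, all above 0, of which 4 of 8 were over 0.1. Of the treated explants 2 of 8 went best with their own number. The main test took no pairs because the labels name none, and these values do not settle whether the numbers mark pairs. With the replicate block 0 mitosis genes passed, 33 were above 0 and the median log2 fold change was 0.43.

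Signs turned for genes near 0. The log2 fold change of Cdc25c was 0.10 by limma voom, 0.0091 with upper-quartile factors and 0.10 with the replicate block, and ran from −0.18 to 0.25 as explants were left out. That of Aurka was 0.0098 by limma voom and ran from −0.19 to 0.089 as explants were left out. That of Plk1 ran from −0.29 to 0.013 as explants were left out, its highest without control 1. Adjusted for mitochondrial ribosomal RNA, Ccnb1 had −0.19 and Incenp −0.040. Other moves included Nuf2, at 0.24 without blebbistatin 5, Hmmr, at 0.15 without control 3, and Bub3, at −0.03 without blebbistatin 6.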
